A study of Mus musculus with 30 samples.

Results

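The mitochondrially encoded genes were followed across hearts of mice carrying the CHCHD10 p.S55L substitution and of wild-type (WT) mice. Members were every row of the 2 deposited count tables whose Ensembl ID has a gene symbol beginning with mt-, with each table read on its own. There were 37 such genes among 78258 rows in the table of the postpartum study and 37 among 56691 rows in the table of the diet study. They are 13 mRNA genes, 2 rRNA genes and 22 tRNA genes, all on chromosome M.

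The mitochondrial genome is a small circle that is read from both strands as long transcripts, and these are cut apart, mostly at the tRNAs that lie between the other genes. Its mRNAs encode core subunits of respiratory complexes I, III and IV and of the ATP synthase (complex V), and its rRNAs and tRNAs serve the ribosome that translates them. All other subunits, and all proteins that copy, transcribe and process this genome, are encoded in the nucleus. Cardiomyocytes are dense in mitochondria, and CHCHD10 is a nuclear-encoded protein of the space between the mitochondrial membranes.

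In the postpartum study, S55L naive and WT naive mice were aged to 100 days, and S55L PP and WT PP mice were bred at 65 days and killed on postpartum (PP) day 0. The animals of the diet study were S55L mice on postpartum day 0 that had been fed EH301 diet or control diet during breeding, so no WT heart was measured there. Neither the number of mutant alleles nor whether each library came from its own animal is given in the labels, so p-values measure the spread between libraries. Each group had 5 deposited columns. The first 2 columns of S55L PP were the same in every count, and so were the first 2 of WT PP, and each such pair entered as 1 library. EH301 diet column 6 was the same as control diet column 5, and both were dropped. Compared were thus 5 S55L naive and 5 WT naive, 4 S55L PP and 4 WT PP, and 4 EH301 diet and 4 control diet libraries. Libraries were made from whole heart RNA with a kit that primes on stretches of A and reads near the 3′ ends of RNAs, and in such bulk samples fewer cells of a type and less RNA per cell cannot be told apart.

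Reads on genes numbered 3369420 to 5131316 in S55L naive, 1418715 to 2307283 in WT naive, 2755500 to 4157372 in S55L PP, 1897249 to 2949993 in WT PP, 1141997 to 3048461 in EH301 diet and 466651 to 2982870 in control diet libraries. The lowest of these was control diet library 1. Reads that aligned to several places made up 17.5% to 21.2% of reads in S55L libraries and 24.7% to 27.3% in WT libraries of the postpartum study, and 35.2% to 39.1% in the diet study. The groups of the postpartum study also sat in different plate columns by the well codes in the labels. All WT naive libraries were in column 1 and all S55L naive libraries in column 2, WT PP libraries were in columns 1 and 2, and S55L PP libraries were in columns 2 and 3. Within the naive pair genotype and plate column cannot be told apart. A plate column term takes the step from column 1 to column 2 from WT PP library 1 against WT PP libraries 3, 4 and 5. In the postpartum pair only S55L PP library 5 and WT PP library 1 shared a column, so that term rests on these. Chchd10 itself rose in S55L naive against WT naive hearts (log2 fold change 0.73 ± 0.19 SE, adjusted p = 0.00284), but these counts do not read the allele.

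The genes that held most reads are shown first by their last bases, which lie nearest to where a 3′ library would begin. Bases are given 5′ to 3′ from GENCODE M21 transcripts, and capitals mark bases inside stretches of 75 bases that also occur, letter for letter, in a transcript of a nuclear gene.

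mt-Cytb: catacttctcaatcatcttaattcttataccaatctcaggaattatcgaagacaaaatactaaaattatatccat

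mt-Nd4: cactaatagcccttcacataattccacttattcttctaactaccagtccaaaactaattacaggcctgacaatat

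mt-Nd1: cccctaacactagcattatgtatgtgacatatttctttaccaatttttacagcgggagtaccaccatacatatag

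mt-Nd2: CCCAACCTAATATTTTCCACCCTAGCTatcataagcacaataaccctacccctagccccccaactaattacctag

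These 4 mRNAs had few or no capitals at their ends. Another 3 mRNAs, which had at least 37810 reads each in the postpartum study and at most 1 in the diet study, are set beside them. Their ends were in capitals almost throughout.

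mt-Co2: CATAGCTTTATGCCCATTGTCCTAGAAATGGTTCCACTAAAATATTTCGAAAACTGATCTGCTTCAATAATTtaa

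mt-Co3: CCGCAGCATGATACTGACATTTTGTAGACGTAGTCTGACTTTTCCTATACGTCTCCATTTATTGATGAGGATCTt

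mt-Nd3: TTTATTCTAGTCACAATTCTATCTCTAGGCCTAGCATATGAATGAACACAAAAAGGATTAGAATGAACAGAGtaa

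Reads were spread very unevenly over the members. In the postpartum study mt-Cytb, the cytochrome b of complex III, held 38.2% of all mitochondrially encoded reads. The complex I subunits mt-Nd4, mt-Nd2 and mt-Nd1 held 26.7%, 11.7% and 10.6%. The large rRNA mt-Rnr2 held 4.24%, mt-Co1, the catalytic subunit of complex IV, held 2.68%, and mt-Nd5 held 2.30%. mt-Co2 followed with 1.37%, the small rRNA mt-Rnr1 with 0.816%, mt-Co3 with 0.550% and mt-Nd3 with 0.425%. These are shares of reads, not levels per length, and a 3′ library also counts a gene by how well its RNA is primed.

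Of the 37 genes, 34 had at least 1 read in the postpartum study and 22 passed the filter on low counts and were tested: 12 of 13 mRNAs, both rRNAs and 8 of 22 tRNAs. The untested mRNA was mt-Nd6, and the untested tRNAs held between 0 and 125 reads each over 18 libraries. In the diet study 26 genes had a read and 18 were tested: 7 mRNAs, both rRNAs and 9 tRNAs. The tRNAs mt-Tn, mt-Tk and mt-Tg had no read in either study.

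**Figure D1:**
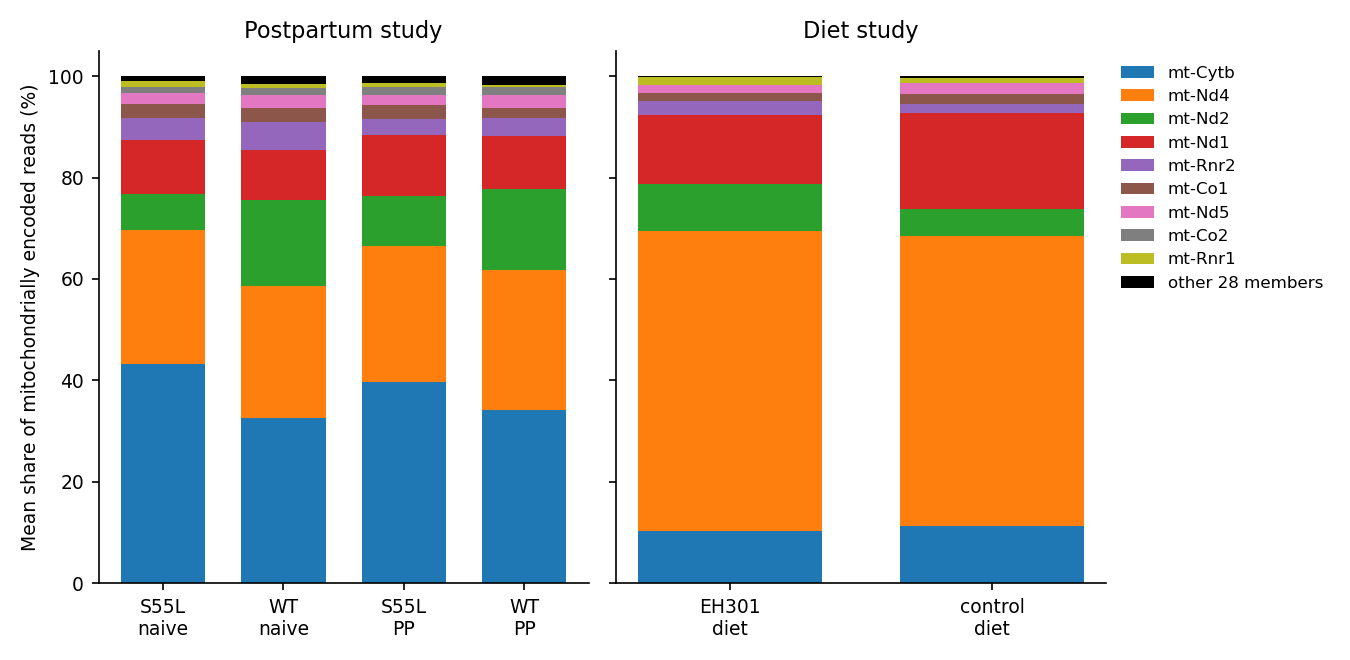
Mean share of each member in the mitochondrially encoded reads (%, stacked to 100) in S55L naive, WT naive, S55L PP and WT PP hearts and, counted in a table of its own, EH301 diet and control diet hearts. mt-Cytb takes the widest band in the postpartum study and mt-Nd4 in the diet study, and the mt-Nd2 band is narrower in S55L naive than in WT naive hearts.

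By strand, 12 mRNAs, both rRNAs and 14 tRNAs lie on the plus strand, and mt-Nd6 and 8 tRNAs lie on the minus strand. Plus-strand mRNAs held 94.8% of the mitochondrially encoded reads of the postpartum study and 96.2% of those of the diet study. mt-Nd6, the only mRNA of the minus strand and a subunit of complex I, held 119 reads (0.00134%) in the postpartum study and 115 reads (0.00305%) in the diet study. Minus-strand tRNAs held 2632 reads (0.0296%) in the postpartum study and 2395 reads (0.0636%) in the diet study.

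The minus-strand genes together took 0.0255% ± 0.00421 of mitochondrially encoded reads in S55L naive and 0.0389% ± 0.0235 in WT naive hearts (SD, n = 5 each). Their share was 0.0415% ± 0.0250 in S55L PP and 0.0278% ± 0.00687 in WT PP hearts (SD, n = 4 each). In both pairs the ranges overlapped. All counts of minus-strand genes given here depend on whether strand was used in counting, which is not given in the sources used here. If it was not, reads of plus-strand RNA over these genes would be counted for them. The tail ends of mt-Nd5 and mt-Nd6 face each other and share 14 bases, in capitals below. Reads there can be assigned only if strand was used.

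mt-Nd5: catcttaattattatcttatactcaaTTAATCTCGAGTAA

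mt-Nd6: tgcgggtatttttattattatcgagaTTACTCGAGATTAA

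Among plus-strand neighbours, the last 43 bases of mt-Atp8 are also the first bases of mt-Atp6, both subunits of the ATP synthase, and mt-Nd4l and mt-Nd4 share 7 bases. Reads within these overlaps cannot be given to 1 gene. The overlap is in capitals here because it makes up a large part of mt-Atp8, which is 204 bases long.

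mt-Atp8: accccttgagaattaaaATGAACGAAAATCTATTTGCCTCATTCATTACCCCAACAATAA

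The summed share of all 37 genes was lower in S55L than in WT hearts, naive or postpartum. In S55L naive hearts 1 to 5 they took 14.5%, 14.4%, 13.9%, 15.2% and 14.1% of reads on genes, and in WT naive hearts 1 to 5 they took 19.1%, 23.7%, 22.1%, 23.2% and 23.2%. Means were 14.4% ± 0.473 in S55L naive and 22.3% ± 1.85 in WT naive hearts (SD, n = 5 each). All S55L naive hearts lay below all WT naive hearts.

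In S55L PP hearts 1, 3, 4 and 5 the share was 9.82%, 14.3%, 15.5% and 9.52%, and in WT PP hearts 1, 3, 4 and 5 it was 19.2%, 24.6%, 22.9% and 16.8%. Means were 12.3% ± 3.06 in S55L PP and 20.9% ± 3.55 in WT PP hearts (SD, n = 4 each), again without overlap. Taken over all reads, including those that fell on no gene, on several genes or in several places, the share was 6.49% to 10.5% in S55L PP and 10.4% to 14.5% in WT PP hearts, and then S55L PP heart 4 lay above WT PP heart 5. Over all reads the naive groups stayed apart, at 9.52% to 10.1% in S55L naive and 11.3% to 14.3% in WT naive hearts.

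Part of the spread inside groups went with the position on the library plate. WT naive heart 1, WT PP hearts 1 and 5 and S55L PP hearts 1 and 5 were in the outer plate rows A and H, where each identical pair of columns was taken as its row A copy, and each had a lower share than every heart of its group in the other rows. No S55L naive heart was in these rows. In the other rows, S55L PP hearts were at 14.3% and 15.5%, S55L naive hearts at 13.9% to 15.2%, WT PP hearts at 22.9% and 24.6% and WT naive hearts at 22.1% to 23.7%. In the diet study the outer rows were not the low ones: EH301 diet heart 7 in row A had the highest share of its group. What part the plate had in the spread was not tested.

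**Figure D2:**
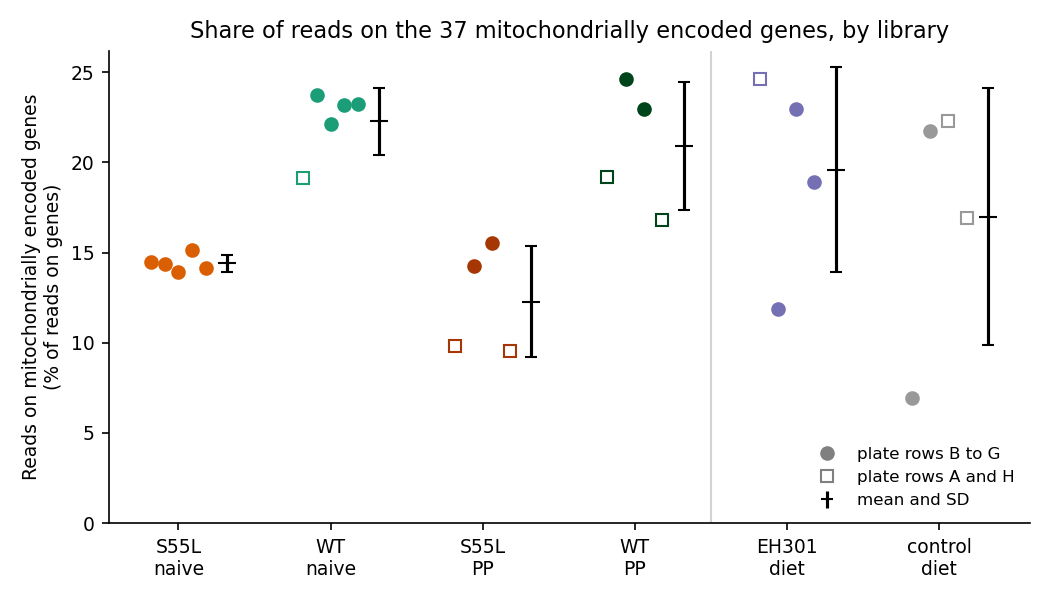
Share of reads on genes that fell on the 37 mitochondrially encoded genes (%), with 1 point for each library and bars for mean and SD. S55L naive hearts at 13.9% to 15.2% lie below WT naive hearts at 19.1% to 23.7%, and open squares mark plate rows A and H.

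Set against WT naive hearts, S55L naive hearts had lower counts of most of the mitochondrially encoded mRNAs and tRNAs that had enough reads to be tested. With edgeR's quasi-likelihood test at an adjusted p of 0.05, 18 of the 22 tested members fell and 0 rose, among 11945 genes tested of which 43.5% were called and 21.6% were called lower. Those that fell were 11 of 12 mRNAs and 7 of 8 tRNAs, and neither rRNA passed. The median log2 fold change of the 22 was -1.41, against -0.0039 over all genes tested. For 15 of them every S55L naive heart lay below every WT naive heart, which was so for 15.4% of all genes tested, and 32.2% did not overlap in one direction or the other. Without the hearts in plate rows A and H, a setting added after seeing the data, 20 of 24 tested members fell. In this pair that left out only WT naive heart 1, which had the lowest summed share of its group, so it is no independent check. With plate column as a term in the fit, 10 fell, and with it 2873 genes were called in place of 5192. Here that term rests on WT PP heart 1 alone in column 2, and it does not separate genotype from column. Scaled to total counts, 17 members fell, while 4013 genes were called higher and 1485 lower in place of 2614 and 2578, and the median of all genes moved to 0.24.

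Complex I was read by 7 mRNAs, and mt-Nd2 showed the widest difference among them. CPM values (counts relative to the scaled size of each library) of mt-Nd2 were 12620.2, 8639.7, 8679.6, 10652 and 7635 in S55L naive hearts, against 44365, 48014, 38129, 32597 and 43461 in WT naive hearts. The highest S55L naive heart was well below the lowest WT naive heart. The log2 fold change was -2.10 ± 0.26 (SE, adjusted p = 7.34e-07).

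mt-Nd3, a small core subunit, averaged 432 ± 57.6 CPM in S55L naive and 1139 ± 237 CPM in WT naive hearts (SD, n = 5 each) and fell by 1.40 ± 0.15 on the log2 scale (adjusted p = 2.58e-08). mt-Nd4l was at 24.2 to 39.2 CPM in S55L naive and 51.0 to 117 CPM in WT naive hearts and fell by 1.48 ± 0.22 (adjusted p = 5.4e-06). For mt-Nd5 the ranges were 2593 to 3343 CPM in S55L naive and 4975 to 6913 CPM in WT naive hearts, and it fell by 1.13 ± 0.18 (adjusted p = 9.88e-06). The groups did not overlap for any of these 3 genes.

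mt-Nd4 and mt-Nd1, both membrane subunits of complex I, also fell. mt-Nd4 had 31430.4, 33371, 37145, 38412 and 37929 CPM in S55L naive hearts, against 54142, 66972, 65262, 72306 and 64813 CPM in WT naive hearts, without overlap. Its log2 fold change was -0.86 ± 0.18 (SE, adjusted p = 0.000348), and that of mt-Nd1 was -0.79 ± 0.16 (SE, adjusted p = 0.0003). With plate column as a term, mt-Nd4 was at -0.36 (adjusted p = 0.462) and mt-Nd1 at -0.30 (adjusted p = 0.517), so both calls were lost. mt-Nd6 was at 1.53 to 3.98 CPM in S55L naive and 1.15 to 4.09 CPM in WT naive hearts, too few reads to be tested.

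mt-Cytb, the single complex III subunit encoded here, was the 1 tested mRNA that did not pass in this pair. It had 53724, 59549.9, 57084, 62279.6 and 58434 CPM in S55L naive hearts, against 52339, 88134, 85174, 100315 and 83903 CPM in WT naive hearts. WT naive heart 1, in plate row A, lay below all S55L naive hearts, and the other 4 WT naive hearts lay above them. The log2 fold change was -0.49 ± 0.22 (SE) and did not pass (adjusted p = 0.0698). Without WT naive heart 1 it was -0.62 (adjusted p = 0.0249), and with the outer plate rows as a term it was -0.63 (adjusted p = 0.000147).

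In complex IV, mt-Co3 had 531, 530.2, 509, 676 and 561 CPM in S55L naive hearts, against 1751, 1730.1, 1736, 1540.2 and 1269 CPM in WT naive hearts. These groups were far apart, and mt-Co3 had the lowest adjusted p of all members (log2 fold change -1.52 ± 0.13 SE, adjusted p = 9.8e-10). mt-Co2, which carries the copper site that accepts electrons from cytochrome c, averaged 1604 ± 131 CPM in S55L naive and 3441 ± 431 CPM in WT naive hearts (SD, n = 5 each) and fell by 1.10 ± 0.13 (adjusted p = 1.49e-07). mt-Co1 was at 3107 to 4498 CPM in S55L naive and 3306 to 8479 CPM in WT naive hearts, which overlapped through WT naive heart 1 alone. Its fold change of -0.83 ± 0.30 (SE, log2) passed narrowly (adjusted p = 0.0345), and the call was lost when any 1 of WT naive hearts 2, 3, 4 or 5 or S55L naive hearts 3 or 5 was left out (adjusted p 0.054 to 0.0732). It was also lost with plate column as a term (-0.34, adjusted p = 0.738), with no filter on low counts (adjusted p = 0.185), scaled to total counts (adjusted p = 0.0885) and with voom (adjusted p = 0.074).

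Both ATP synthase genes fell, by unequal amounts. mt-Atp8 had 26.9, 16.6, 19.2, 22.5 and 22.2 CPM in S55L naive hearts, against 116, 105, 93.6, 78.6 and 87.6 CPM in WT naive hearts. Its log2 fold change was -2.16 ± 0.27 (SE, adjusted p = 1.56e-06). mt-Atp6 averaged 279 ± 28.9 CPM in S55L naive and 578.1 ± 49.4 CPM in WT naive hearts (SD, n = 5 each), also without overlap, and fell by 1.05 ± 0.14 (adjusted p = 5.47e-07).

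The 2 rRNAs varied widely within each group. mt-Rnr2 had 11617, 5516, 4622, 5404 and 2228 CPM in S55L naive hearts, against 5714, 19817, 11723, 9995 and 22989 CPM in WT naive hearts. S55L naive heart 1 lay among the WT naive hearts and WT naive heart 1 among the S55L naive hearts. mt-Rnr2 differed by -1.26 ± 0.62 (SE, adjusted p = 0.115) and mt-Rnr1 by -0.60 ± 0.51 (SE, adjusted p = 0.362) on the log2 scale. Without the hearts in the outer plate rows mt-Rnr2 was called lower, at -1.45 (adjusted p = 0.0225). In this pair that left out only WT naive heart 1, the lowest WT naive heart for mt-Rnr2.

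The tRNA genes were read at low counts. mt-Tm and mt-Tp, the 2 with the most reads in each study, and mt-Ti, the one that differed most between the naive groups, are shown whole, since each is short enough to be read from end to end.

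mt-Tm: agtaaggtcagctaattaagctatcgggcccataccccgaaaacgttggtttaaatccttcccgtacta

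mt-Tp: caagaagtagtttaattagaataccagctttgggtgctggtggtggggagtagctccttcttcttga

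mt-Ti: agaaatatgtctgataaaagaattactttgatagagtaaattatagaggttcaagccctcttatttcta

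The isoleucine tRNA mt-Ti had 8.96, 3.39, 3.57, 7.39 and 5.02 CPM in S55L naive hearts, against 54.1, 41.6, 24.6, 17.8 and 49 CPM in WT naive hearts. It did not overlap between the groups and fell by 2.74 ± 0.48 (SE, adjusted p = 0.000219). The methionine tRNA mt-Tm was at 12.5 to 37.2 CPM in S55L naive and 38.4 to 216 CPM in WT naive hearts and fell by 2.67 ± 0.61 (adjusted p = 0.00253), and the proline tRNA mt-Tp, of the minus strand, fell by 1.58 ± 0.32 (adjusted p = 0.000562) with overlap. mt-Tl1, mt-Tq, mt-Td and mt-Tt also fell, by 1.43 to 2.30, and mt-Tl2 did not pass (-0.40 ± 0.68 SE, adjusted p = 0.662). With plate column as a term mt-Tm, mt-Tp, mt-Tq, mt-Td and mt-Tt were no longer called (adjusted p 0.0777 to 0.187). A read counted for a tRNA may come from an uncut transcript or a neighbour that overlaps it by a few bases, as mt-Ti does with mt-Nd1 and mt-Tq, and this was not tested.

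**Figure D3:**
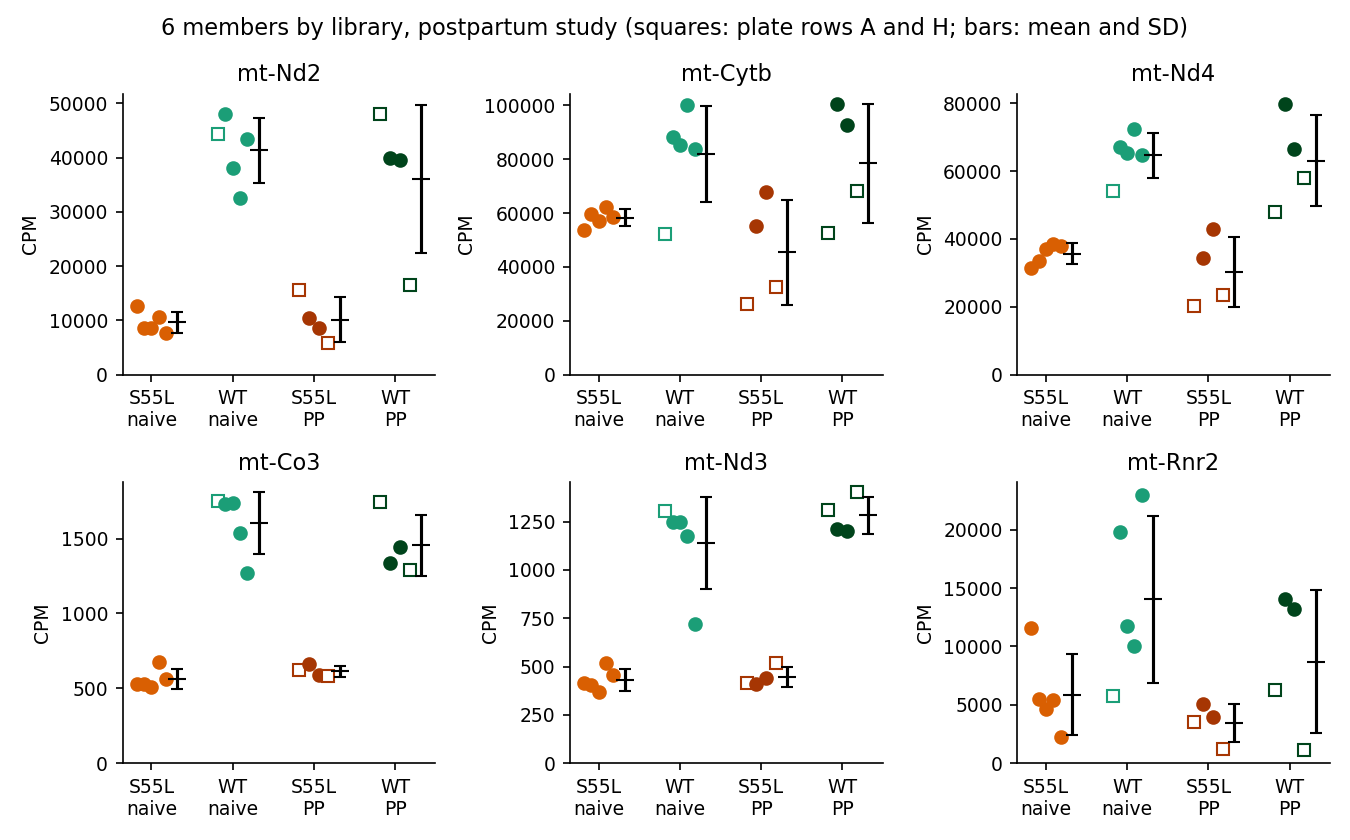
CPM of 6 members in each library of the postpartum study, with bars for mean and SD and open squares for plate rows A and H. For mt-Nd2, mt-Nd4, mt-Co3 and mt-Nd3 the S55L hearts lie below the WT hearts in the naive and in the postpartum pair, and for mt-Cytb and mt-Rnr2 the groups overlap.

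Within the mitochondrially encoded reads, the makeup also differed between S55L naive and WT naive hearts. mt-Cytb made up 43.2% ± 2.04 of them in S55L naive and 32.6% ± 3.92 in WT naive hearts (SD, n = 5 each), without overlap. Shares are parts of a whole, and in CPM mt-Cytb was not higher in S55L naive hearts. It averaged 58214 CPM in S55L naive and 81973 CPM in WT naive hearts, with overlap. mt-Nd2 made up 7.14% ± 1.36 in S55L naive and 16.9% ± 3.93 in WT naive hearts, again without overlap. The shares of mt-Nd5, mt-Co3 and mt-Atp8 were also lower in every S55L naive heart than in every WT naive heart. Those of mt-Nd4, mt-Nd1, mt-Nd3, mt-Nd4l, mt-Co1, mt-Co2, mt-Atp6, both rRNAs, mt-Td, mt-Tm and mt-Tp overlapped. In the postpartum pair the mt-Cytb share was 31.2% to 46.2% in S55L PP and 27.6% to 38.2% in WT PP hearts, and the mt-Nd2 share was 5.92% to 18.7% in S55L PP and 9.28% to 25.2% in WT PP hearts. Both overlapped there, and of the tested mRNAs and rRNAs only mt-Nd4l had shares that did not.

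Postpartum, S55L hearts again had lower counts than WT hearts for most of the members that were tested. In S55L PP hearts 15 of the 22 tested members fell against WT PP hearts and 0 rose, among 11945 genes of which 31.5% were called and 15.2% were called lower. Those that fell were 11 of 12 mRNAs, 0 of 2 rRNAs and 4 of 8 tRNAs. The median log2 fold change was -1.19, against -0.000681 over all genes tested. Of the 22, 12 lay below without overlap, against 11.7% of all genes tested (25.4% in either direction). Without the hearts in plate rows A and H, which left 2 hearts in each group, 16 of 24 fell. With plate column as a term 9 of 22 did, with 2108 genes called in place of 3767. That fit compares the genotypes only through S55L PP heart 5 and WT PP heart 1, which shared column 2. Scaled to total counts 13 fell, while 3450 genes were called higher and 980 lower of 11945, where the scaling used here called 16.3% higher and 15.2% lower, and the median of all genes moved to 0.27.

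mt-Nd2 had 15681, 10405, 8682 and 5808 CPM in S55L PP hearts, against 48030.4, 39936, 39634 and 16509 CPM in WT PP hearts. WT PP heart 5 was the low one of its group and still lay above all S55L PP hearts. mt-Nd2 fell by 1.83 ± 0.28 (SE, adjusted p = 2.76e-05). mt-Nd3 had 414, 411, 442 and 519 CPM in S55L PP hearts, against 1309, 1215, 1201 and 1404 CPM in WT PP hearts. Neither group spread much, and mt-Nd3 fell by 1.52 ± 0.17 (SE, adjusted p = 6.96e-08).

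The other complex I mRNAs that were tested fell as well. mt-Nd4 averaged 30213 ± 10393 CPM in S55L PP and 63088 ± 13507 CPM in WT PP hearts (SD, n = 4 each) and fell by 1.06 ± 0.20 (adjusted p = 0.00017). mt-Nd1 fell by 0.89 ± 0.18 (adjusted p = 0.000371; 0.183 with plate column as a term), mt-Nd4l by 1.44 ± 0.25 (adjusted p = 6.63e-05) and mt-Nd5 by 1.23 ± 0.20 (adjusted p = 2.42e-05). None of these overlapped between S55L PP and WT PP hearts.

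mt-Cytb passed in this pair. It had 26190.5, 55154, 67746 and 32409 CPM in S55L PP hearts, against 52705, 100666, 92570.4 and 68014 CPM in WT PP hearts. In both groups hearts 1 and 5, in the outer plate rows, were the low ones, and the groups overlapped. mt-Cytb fell by 0.79 ± 0.25 (SE, adjusted p = 0.0152), and the call was lost without WT PP heart 3, WT PP heart 4 or S55L PP heart 5 (adjusted p 0.0516 to 0.0633), with plate column as a term (adjusted p = 0.281) and when scaled to total counts (adjusted p = 0.0574). The call was also lost in a fit of these 2 groups alone (-0.80, adjusted p = 0.0694).

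Of the complex IV and ATP synthase genes, mt-Co2 averaged 1630.4 ± 214 CPM in S55L PP and 3494 ± 153 CPM in WT PP hearts (SD, n = 4 each) and fell by 1.10 ± 0.15 (adjusted p = 1.46e-06). mt-Co3 averaged 612 ± 36.4 CPM in S55L PP and 1454 ± 206 CPM in WT PP hearts and fell by 1.25 ± 0.15 (adjusted p = 2.74e-07). mt-Atp6 fell by 1.05 ± 0.15 (adjusted p = 4.76e-06) and mt-Atp8 by 2.01 ± 0.30 (adjusted p = 2.22e-05). The groups did not overlap for these 4 genes.

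mt-Co1 did not pass. It had 2834, 3885, 3588 and 1898 CPM in S55L PP hearts, against 3994, 7048, 7627 and 2146 CPM in WT PP hearts, and differed by -0.77 ± 0.34 (SE, adjusted p = 0.0935). WT PP heart 5 lay below 3 of the 4 S55L PP hearts, and without it mt-Co1 was called lower (-1.03, adjusted p = 0.00892). mt-Rnr2 had 3568, 5049, 3924 and 1189 CPM in S55L PP hearts, against 6249, 14087, 13235 and 1133 CPM in WT PP hearts, and its log2 difference of -1.34 ± 0.69 did not pass (SE, adjusted p = 0.161). WT PP heart 5 lay below all S55L PP hearts. mt-Rnr1 differed by -0.74 ± 0.57 (SE, adjusted p = 0.352).

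Of the tRNAs, mt-Ti, mt-Tl1, mt-Tq and mt-Td fell postpartum, by 1.16 to 2.33 on the log2 scale. The mt-Tq call was lost without WT PP heart 5, S55L PP heart 3 or S55L PP heart 4 (adjusted p 0.0647 to 0.104). It was also lost scaled to total counts (adjusted p = 0.067) and in a fit of these 2 groups alone (adjusted p = 0.0547). mt-Tl1 was not called without the hearts in the outer plate rows (adjusted p = 0.0561). mt-Ti had 13.7, 4.04, 1.62 and 8.42 CPM in S55L PP hearts, against 38.1, 33.5, 33.2 and 10.4 CPM in WT PP hearts. mt-Tm was at -1.50 (adjusted p = 0.0961), mt-Tp at -0.61 (adjusted p = 0.21), mt-Tt at -0.46 (adjusted p = 0.439) and mt-Tl2 at 0.32 (adjusted p = 0.784), none of which passed. With replicate number as a block, mt-Tm was called lower (-1.73, adjusted p = 0.0452). In a fit of these 2 groups alone with that block, mt-Co1 (adjusted p = 0.00153), mt-Rnr1 (adjusted p = 0.0371) and mt-Tp (adjusted p = 0.0402) were called lower and mt-Ti was not called (adjusted p = 0.0601). With plate column as a term none of the tRNAs was called in this pair (adjusted p 0.184 to 0.614 for the 4 that fell).

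**Figure D4:**
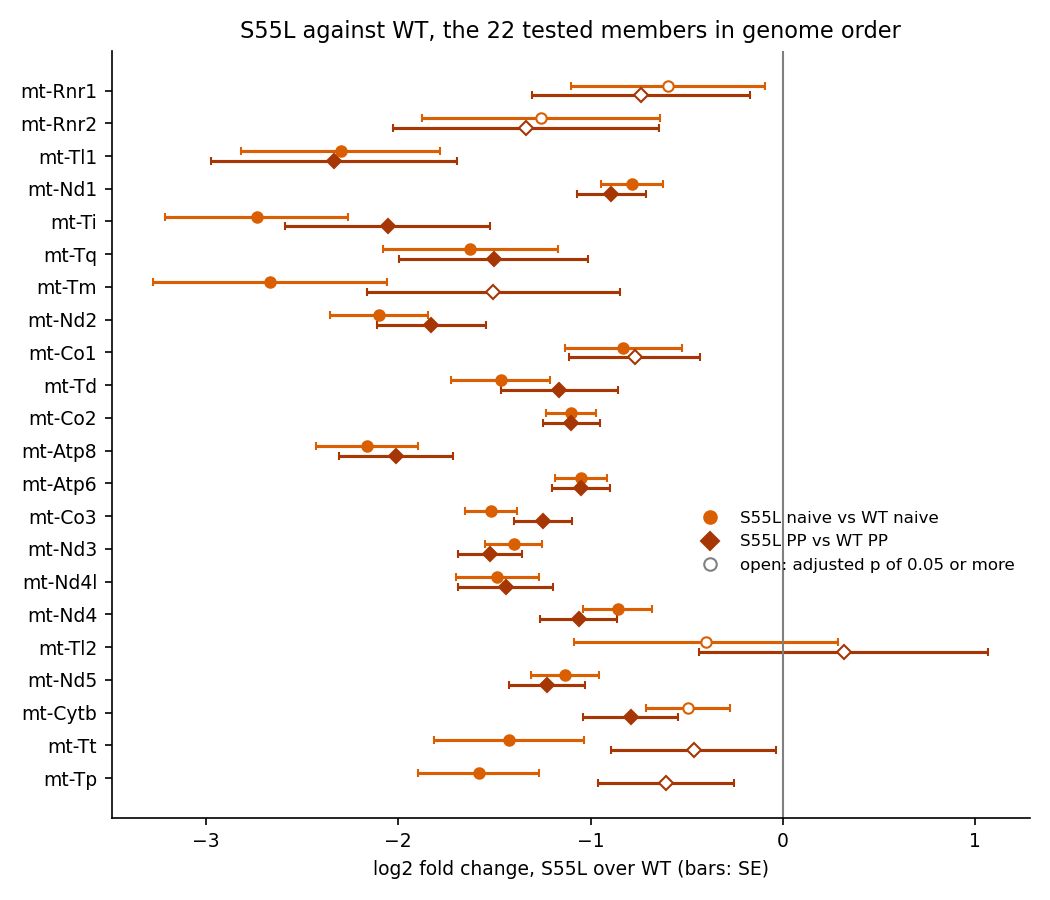
Log2 fold changes of S55L over WT hearts with their SE for the 22 tested members, in genome order, with circles for the naive and diamonds for the postpartum pair and open symbols for an adjusted p of 0.05 or more. All points but the postpartum one of mt-Tl2 lie below 0, and mt-Nd2, mt-Atp8, mt-Ti and mt-Tl1 lie farther from 0 in both pairs than the other mRNAs and rRNAs do.

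Between postpartum and naive hearts of the same genotype no member passed the test. In WT PP against WT naive hearts, 0 of the 22 members passed, among 11945 genes of which 0.0167% were called, and DESeq2 also called none of the members. At an unadjusted p under 0.05 there were 2, mt-Td (-0.67 ± 0.28 SE) and mt-Tp (-0.73 ± 0.34 SE). mt-Nd4 averaged 63088 ± 13507 CPM in WT PP (SD, n = 4) and 64699 ± 6611 CPM in WT naive hearts (SD, n = 5), and mt-Co2 averaged 3494 ± 153 CPM in WT PP and 3441 ± 431 CPM in WT naive hearts. The 12 tested mRNAs differed by -0.42 (mt-Co1) to 0.17 (mt-Nd3) on the log2 scale, mt-Rnr2 by -0.70 and mt-Rnr1 by -0.63. All 22 members overlapped between WT PP and WT naive hearts, while 1.88% of all genes did not.

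In S55L PP against S55L naive hearts, edgeR and DESeq2 each called 0 of the 22 members, and 0% of all genes were called by edgeR. No member had an unadjusted p under 0.05. mt-Cytb averaged 45375 ± 19427 CPM in S55L PP (SD, n = 4) and 58214 ± 3154 CPM in S55L naive hearts (SD, n = 5), with S55L PP hearts 1 and 5 below and heart 4 above every S55L naive heart. mt-Nd2 averaged 10144 ± 4149.7 CPM in S55L PP and 9645 ± 1990.3 CPM in S55L naive hearts. The tested mRNAs differed by -0.36 (mt-Cytb, mt-Co1 and mt-Nd4l) to 0.13 (mt-Co3), mt-Rnr2 by -0.78 and mt-Rnr1 by -0.77. All 22 overlapped, while 2.25% of all genes did not (1.11% lower).

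Whether the postpartum difference was of another size in S55L than in WT hearts was tested as an interaction, which called 0 of the 22 members by either tool (0% of all genes by edgeR). At an unadjusted p under 0.05 edgeR had 0 members and DESeq2 had 1, mt-Tp (unadjusted p = 0.0322). The lowest unadjusted p values by edgeR were those of mt-Tp (0.98 ± 0.47 SE, unadjusted p = 0.0536) and mt-Tt (0.96 ± 0.58 SE, unadjusted p = 0.107). The interaction was 0.00 ± 0.19 (SE, log2) for mt-Co2, -0.12 ± 0.22 for mt-Nd3, 0.27 ± 0.37 for mt-Nd2 and -0.30 ± 0.33 for mt-Cytb, and the standard errors of the 22 members ran from 0.19 to 1.01.

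In the diet study no mitochondrially encoded gene passed the test between EH301 diet and control diet hearts, and the summed share varied widely within both groups. In EH301 diet hearts 7, 8, 9 and 10 the 37 genes took 24.6%, 11.9%, 22.9% and 18.9% of reads on genes, and in control diet hearts 1, 2, 3 and 4 they took 6.95%, 21.7%, 22.3% and 16.9%. Means were 19.6% ± 5.67 in EH301 diet and 16.99% ± 7.11 in control diet hearts (SD, n = 4 each), and the groups overlapped. In each group the lowest heart was the one with the fewest reads, 1141997 in EH301 diet heart 8 and 466651 in control diet heart 1. All EH301 diet libraries were in plate column 3 and the control diet libraries in columns 1 and 2, so diet and plate column cannot be told apart.

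Of 18 tested members, 0 passed, among 10335 genes of which 0% were called by edgeR's quasi-likelihood test, and DESeq2 called 0 of the 18. At an unadjusted p under 0.05 there were 3, mt-Nd2, mt-Rnr1 and mt-Rnr2, all higher in EH301 diet hearts. mt-Nd2 had 42841, 8766, 14669.9 and 12694 CPM in EH301 diet hearts, against 4515, 10698, 10694 and 9290.2 CPM in control diet hearts (log2 fold change 1.17 ± 0.51 SE, adjusted p = 0.9999). mt-Rnr2 had 14946, 2448, 4926 and 2603 CPM in EH301 diet hearts, against 2155, 1894, 2933 and 1907 CPM in control diet hearts (1.49 ± 0.54 SE, adjusted p = 0.9999). EH301 diet heart 7 was the highest for both genes, and without it, or without control diet heart 4, no member had an unadjusted p under 0.05. Leaving out any other single library gave 1 to 4 such members, with 4 when control diet heart 1 was left out. Without the libraries under 1200000 reads there were also 4. In that fit 456 of all 10554 genes tested were under 0.05 unadjusted, against 137 in the main fit, and no member passed. In CPM all 18 members overlapped between the diets, while 1.5% of all genes did not. As a share of the mitochondrially encoded reads, mt-Nd2 was at 6.59% to 17.4% in EH301 diet and 4.78% to 6.26% in control diet hearts, which narrowly did not overlap. It was picked out after all members with enough reads were compared this way, and every other one overlapped. No p and no share over all genes stands beside this measure, so it is not read as a difference between the diets.

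The members with the most reads were spread around like means. mt-Nd4 averaged 115382 ± 26769 CPM in EH301 diet and 103227 ± 54094 CPM in control diet hearts (SD, n = 4 each), where control diet heart 1 had 27806 CPM and the other 3 had 100297 to 144885 CPM. mt-Cytb averaged 20530.3 ± 6147 CPM in EH301 diet and 20365 ± 11380.1 CPM in control diet hearts. mt-Nd1 differed by -0.14 ± 0.31, mt-Nd5 by 0.13 ± 0.29, mt-Co1 by -0.06 ± 0.28 and mt-Nd6 by 0.24 ± 0.44 (SE, log2, adjusted p = 0.9999 for each). The tRNAs differed by -0.75 to 0.41, and control diet heart 1 was the highest of its group for mt-Tp, mt-Tq, mt-Ta, mt-Tm and mt-Tv.

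The 2 tables differed in which members they counted. In the diet study mt-Co3, mt-Nd3, mt-Nd4l and mt-Td had 0 reads, mt-Co2 and mt-Atp6 had 1 read each and mt-Atp8 had 7, over 8 libraries. In the postpartum study the same genes had 48876, 37810, 2419, 1048, 121733, 20136 and 2494 reads over 18 libraries, in the order mt-Co3, mt-Nd3, mt-Nd4l, mt-Td, mt-Co2, mt-Atp6 and mt-Atp8. The tables were counted separately and differ in their lists of genes, and the share of reads aligned to several places was higher in the diet study.

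The mRNAs with at most 7 reads in the diet study were mostly those whose sequence also lies in nuclear transcripts. Of all stretches of 75 bases, 99.9% of those in mt-Co3, 99.5% of those in mt-Co2 and in mt-Atp6, 98.7% of those in mt-Nd4l and 97.8% of those in mt-Nd3 occur in a transcript of a nuclear gene, among them Gm28437 for mt-Co3, Gm28661 for mt-Co2, Gm10925 for mt-Atp6, Gm10222 for mt-Nd4l and Gm28438 for mt-Nd3. In mt-Cytb, mt-Nd1, mt-Nd6, mt-Rnr1, mt-Rnr2 and mt-Atp8 the share was 0%. mt-Atp8 is the exception among these, with 7 reads in the diet study, and it overlaps mt-Atp6. mt-Td is too short for such a stretch. Only annotated transcripts were searched, not the whole genome.

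mt-Nd4 shares only its first part. Bases 1 to 876 of its 1378 are in the nuclear gene Gm28439, and none of the last 300 are. The 120 bases around the end of the shared stretch, from base 817 to base 936, show where the capitals stop.

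mt-Nd4: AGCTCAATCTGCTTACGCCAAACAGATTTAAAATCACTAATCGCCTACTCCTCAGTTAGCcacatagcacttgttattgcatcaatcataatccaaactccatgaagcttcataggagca

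mt-Nd4 held 60.6% of the mitochondrially encoded reads in the diet study and 26.7% in the postpartum study, and mt-Cytb held 11.4% and 38.2%. mt-Co1 goes the other way: all stretches in its last 300 bases are in nuclear transcripts, and it still had 51019 reads in the diet study, 1.35% of the mitochondrially encoded reads. How reads that fit several places were treated is not given in the sources used here, and its part in the difference between the tables was not tested.

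**Figure D5:**
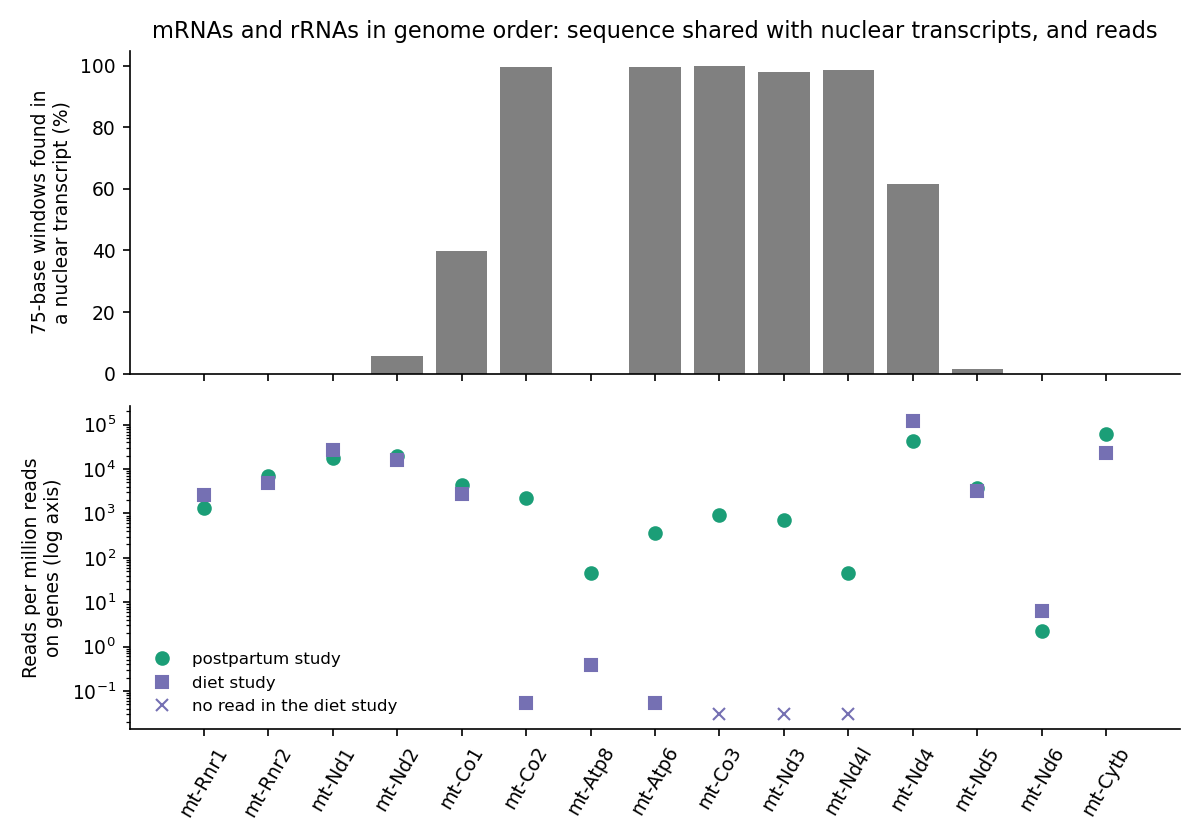
For the 13 mRNAs and 2 rRNAs in genome order, the share of 75-base stretches found in a nuclear transcript (%, bars, upper panel) and reads as CPM of reads on genes in each study (log axis, lower panel), with crosses for no read. Genes with a share of 97.8% or more have at most 1 read in the diet study, and mt-Atp8, with 0%, has 7.

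In the postpartum study the nuclear copies also received reads. Of 7 listed copies, 6 were tested, and 3 fell in S55L naive against WT naive hearts and 4 in S55L PP against WT PP hearts, with 0 higher in either. Of all genes tested, 21.6% fell in the naive and 15.2% in the postpartum pair. Gm28661, the copy of mt-Co2, fell by 0.88 ± 0.13 in S55L naive hearts (adjusted p = 2.64e-06) and by 1.06 ± 0.14 in S55L PP hearts (adjusted p = 1.51e-06). Gm28437, the copy of mt-Co3, fell by 0.84 ± 0.15 in S55L naive hearts (adjusted p = 4.12e-05) and by 0.92 ± 0.16 in S55L PP hearts (adjusted p = 8.54e-05). Counts of mt-Co2, mt-Co3, mt-Nd3, mt-Nd4l and mt-Atp6 are therefore uncertain by what was given to such copies.

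The nuclear-encoded partners of these subunits were set beside them. For 71 listed nuclear subunits of complexes I, III, IV and V, 72 rows were found, so at least 1 symbol stood on more than 1 row. Of these rows 71 were tested. In S55L naive against WT naive hearts 52 fell and 1, Atp5l, rose, with a median log2 fold change of -0.65. In S55L PP against WT PP hearts 58 fell and 0 rose, with a median of -0.76. Of all genes tested, 21.6% fell and 21.9% rose in the naive pair, with a median of -0.0039. In the postpartum pair 15.2% of all genes fell and 16.3% rose, with a median of -0.000681. The lowest adjusted p values were those of Cox7a1 and Cox8b, the forms of complex IV subunits found in heart and skeletal muscle, and of Atp5e, a subunit of the ATP synthase. Cox7a1 fell by 2.41 ± 0.15 in S55L naive and by 2.23 ± 0.16 in S55L PP hearts, Cox8b by 2.11 ± 0.17 in S55L naive and 1.65 ± 0.19 in S55L PP hearts, and Atp5e by 1.29 ± 0.13 in S55L naive and 1.10 ± 0.15 in S55L PP hearts (SE, highest adjusted p = 1.6e-06).

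Of 42 tested genes that copy, transcribe, process or degrade mitochondrial RNA, 6 rose and 10 fell in S55L naive hearts (median log2 fold change -0.16), where 21.9% of all genes rose and 21.6% fell. In S55L PP hearts 3 rose and 9 fell (median -0.26), where 16.3% of all genes rose and 15.2% fell, and neither count is read as a result about this list. Rexo2, an exonuclease that removes short RNAs in mitochondria, rose by 1.25 ± 0.16 in S55L naive (adjusted p = 3.9e-07) and 1.22 ± 0.17 in S55L PP hearts (adjusted p = 3.82e-06). Fastk, of which a mitochondrial form is known to act on mt-Nd6 mRNA, fell by 1.35 ± 0.19 in S55L naive (adjusted p = 1.84e-06) and 1.08 ± 0.21 in S55L PP hearts (adjusted p = 0.000199). Mterf2, of a family of proteins that bind mitochondrial DNA, fell by 1.16 ± 0.22 in S55L naive (adjusted p = 9.64e-05) and 1.73 ± 0.25 in S55L PP hearts (adjusted p = 3.69e-06).

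Tfam, which packs mitochondrial DNA and starts its transcription, was at -0.06 ± 0.18 in S55L naive hearts (adjusted p = 0.794) and fell by 0.59 ± 0.20 in S55L PP hearts (adjusted p = 0.0237). Whether its change differed between the pairs was tested as the interaction, which did not pass (-0.52 ± 0.27 SE, adjusted p = 0.997). Polrmt, the mitochondrial RNA polymerase, fell by 0.37 ± 0.15 in S55L naive hearts (adjusted p = 0.0485) and was at -0.04 ± 0.17 in S55L PP hearts (adjusted p = 0.897). Slirp, which with Lrpprc binds and stabilizes mitochondrial mRNAs, rose by 0.44 ± 0.15 in S55L naive hearts (adjusted p = 0.021) and was at 0.29 ± 0.17 in S55L PP hearts (adjusted p = 0.208). Lrpprc was at 0.66 ± 0.29 in S55L naive (adjusted p = 0.0746) and 0.29 ± 0.32 in S55L PP hearts (adjusted p = 0.53). Chchd10 was at 0.29 ± 0.21 in S55L PP hearts (adjusted p = 0.311).

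Markers of several heart cell types differed between the genotypes as well. Of all genes tested, 21.9% rose and 21.6% fell in S55L naive hearts, and 16.3% rose and 15.2% fell in S55L PP hearts. Of 10 cardiomyocyte markers, all with reads in every group, 9 fell in S55L naive and 9 in S55L PP hearts, with medians of -1.15 and -1.18. Their summed level was 48633 to 65091 CPM in S55L naive and 86729 to 109426 CPM in WT naive hearts, and 40003 to 52426 CPM in S55L PP and 86316 to 105298 CPM in WT PP hearts. Of 8 macrophage markers, 8 rose in S55L naive and 7 in S55L PP hearts, with sums of 636 to 923 CPM in S55L naive, 147 to 189 CPM in WT naive, 659 to 931 CPM in S55L PP and 200.2 to 317 CPM in WT PP hearts. Of 8 fibroblast markers 5 rose in S55L naive and 6 in S55L PP hearts, and of 8 smooth muscle and pericyte markers 7 fell in S55L naive and 5 in S55L PP hearts. Of 8 endothelial markers 3 fell in S55L naive and 2 in S55L PP hearts, and of 5 erythroid markers 3 fell in S55L naive and 0 in S55L PP hearts. The endothelial counts are not read as a result about these cells. The 1 tested adipocyte marker did not pass, and no T or B cell marker had enough reads to be tested. The part of these cell types in the counts of the mitochondrially encoded genes was not tested. In the comparisons of postpartum with naive hearts and of the diets, and in the interaction, no gene of any of these lists passed edgeR's test.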

How the data were processed

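The deposited values are raw counts of reads per gene, in 1 table for each study. The kits were Qiagen RNeasy Mini for RNA and Lexogen QuantSeq 3′ mRNA FWD for libraries, per the labels' protocols. Per the submitters' processing notes, the tools were Trimmomatic 0.39, STAR 2.7.0f, HTSeq 0.6.1 and DESeq2 with a version of 3.21, on the build GRCm39.p6. The annotation release, the strand setting, the HTSeq mode and the read length are not given in the sources used here.

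Ensembl IDs were given symbols from GENCODE M21, which annotates GRCm38, and symbols were found for 51487 IDs (99.4% of reads on genes) in the postpartum study and 52073 IDs (99.8%) in the diet study. Lengths, strands, overlaps and sequences came from its transcripts, and no coordinates are given because the builds differ. A stretch was called shared when all its 75 bases occurred in a transcript of a nuclear gene. The lines that HTSeq adds for unassigned reads were left out. For the postpartum table they held 17.5% to 27.3% of reads aligned to several places, 4.45% to 7.08% on several genes and 5.65% to 10.1% on none. For the diet table these were 35.2% to 39.1%, 1.97% to 2.50% and 1.43% to 1.74%.

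Each table was fitted whole with edgeR 4.0.16 in R 4.3.3 (filterByExpr, TMM scaling, robust quasi-likelihood F test, Benjamini-Hochberg adjustment over all genes tested, threshold 0.05), 18 libraries of 4 groups in one fit and 8 of 2 groups in the other. The SE of a log2 fold change is its size divided by the square root of F. SDs of CPM or of shares are over libraries. No p is given for a sum over members. Libraries other than the identical ones differed, with a chi-square per gene of 2.16 or more (postpartum) and 4.94 or more (diet). The procedure was checked on simulated counts.

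Alternatives were DESeq2 1.42.0, limma 3.58.1 (voom), other scalings, no filter, all deposited columns, plate column or replicate number as a term, a fit of just 2 groups, and each library left out in turn. For the diet study the libraries under 1200000 reads were also left out together. Terms for the outer plate rows, leaving those rows out and the block within the compared groups were added after seeing the data. Same-numbered S55L PP and WT PP libraries deviated together (correlations 0.119 to 0.333 over 4 pairs). Numbers 1 and 5, in the outer plate rows in both groups, gave 0.326 and 0.333, and numbers 3 and 4 gave 0.119 and 0.137. For numbers 1 and 5 a pairing and a shared plate row cannot be told apart. The main fit had no block, and the number entered only as an alternative. In the other pairs of groups at least 1 correlation was 0.1 or lower. The labels do not say what the number stands for.

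All 13 mRNAs and both rRNAs are named, tRNAs where tested, the 3 called genes with the lowest adjusted p of the RNA factor and nuclear subunit lists in each comparison, and Tfam, Polrmt, Lrpprc, Slirp and Chchd10. Atp5l and the nuclear copies were named after their values were seen. The members and lists were chosen with earlier results of these data known. Of 47 RNA factors, 46 were found by symbol. The precision is set by 4 or 5 libraries a group.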

Additional observations from a re-analysis of the deposited data

Results flagged for a closer look

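Within groups of 4 or 5 libraries, 130 sets of values were checked for 1 library standing apart from the others. They were CPM values of single members and the summed share of all members. Such a library was found in 10 sets, each of them CPM values, where chance flags about 1 set in 20. In WT naive hearts, mt-Nd1 was at 19130.4 CPM in heart 1 and at 24974 to 26831 CPM in the others, mt-Co1 at 3306 CPM in heart 1 and at 7297 to 8479 CPM in the others, and mt-Nd5 at 4975 CPM in heart 1 and at 6676 to 6913 CPM in the others. mt-Nd3 was at 722 CPM in WT naive heart 5 and at 1177 to 1303 CPM in the others. In S55L naive hearts, mt-Tl2 was at 7.14 CPM in heart 3 and at 1.42 to 1.96 CPM in the others.

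In control diet hearts, heart 1 stood apart for 5 tRNAs and was the library with the fewest reads on genes, 466651. It had 278 CPM of mt-Tp against 40.5 to 65.7 CPM in the others, 180.2 CPM of mt-Tq against 26.6 to 41.3 CPM, 127 CPM of mt-Ta against 10.2 to 25.1 CPM, 118 CPM of mt-Tm against 39.3 to 44.6 CPM and 28.9 CPM of mt-Tv against 3.77 to 5.32 CPM. The part that depth had in these values was not tested.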

How the results depend on the processing

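No called member changed direction under the alternatives run. With plate column as a term, members called lower numbered 10 in place of 18 in S55L naive against WT naive hearts and 9 in place of 15 in S55L PP against WT PP hearts. In the naive pair that term rests on WT PP heart 1, the only WT PP heart in column 2. In the postpartum pair the fit compares the genotypes only through S55L PP heart 5 and WT PP heart 1. The cause of the lower numbers was not tested. Leaving out each library in turn gave 17 to 20 called in the naive pair, 14 to 16 in the postpartum pair, and 0 in every other comparison. With replicate number as a block 19 were called in the naive and 16 in the postpartum pair, and 17 in the postpartum pair when only its 2 groups were fitted. The block also brought mt-Cytb past the threshold in the naive pair (-0.45, adjusted p = 0.015). There same-numbered libraries did not deviate together (correlations -0.102 to 0.0802). In the naive pair 20 were called with the outer plate rows as a term, 19 with DESeq2, 17 with voom and 17 with total counts, and in the postpartum pair 17, 15, 16 and 13 in the same order of settings. No paired analysis was possible for the diet study because its groups share no replicate numbers, and plate column could not be fitted there since each column held 1 diet. Over all reads in place of reads on genes, the summed share was 9.74% in S55L naive, 13.2% in WT naive, 8.37% in S55L PP, 12.5% in WT PP, 11.7% in EH301 diet and 9.90% in control diet hearts. Without the rRNAs it was 13.6% in S55L naive, 20.9% in WT naive, 11.8% in S55L PP, 19.99% in WT PP, 18.7% in EH301 diet and 16.6% in control diet hearts. Leaving out each library moved its mean over 14.2% to 14.5% in S55L naive, 21.9% to 23.1% in WT naive, 11.2% to 13.2% in S55L PP, 19.6% to 22.2% in WT PP, 17.9% to 22.2% in EH301 diet and 15.2% to 20.3% in control diet hearts. mt-Rnr2 was called lower in the naive pair by DESeq2 (adjusted p = 0.0404) and in the postpartum pair without WT PP heart 5 (-1.70, adjusted p = 0.0401). In S55L PP against S55L naive hearts edgeR called 0 genes, DESeq2 18, and 747 had an unadjusted p under 0.05, and between the diets both called 0, with 137 genes under 0.05 unadjusted in edgeR. Low counts limit what can be said of mt-Nd6 and of the tRNAs.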
